A study of Mus musculus with 6 samples.

Results

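The genes described are the transcriptional coactivators Yap1 and Wwtr1 (TAZ), the DNA-binding factor Tead1, and 5 genes known as targets of YAP, TAZ and TEAD, namely Ccn2 (formerly Ctgf), Ccn1 (formerly Cyr61), Ankrd1, Amotl2 and Axl. These 8 genes are 8 of the 12393 genes with a probe set of their own on the array. They were chosen by name, with earlier results of these data known, and each stands for the brightest of its probe sets, by the mean of all 6 arrays. Together they had 14 probe sets carrying a single gene symbol. Total RNA of mouse mammary tumors was hybridised to 6 Affymetrix arrays. The vehicle group held 3 samples of tumors from mice given vehicle for 21 days. The drug group held 3 samples of tumors from mice given, for the same 21 days, a combination of VX680 (an Aurora kinase inhibitor), miltefosine (a phospholipid analog) and WP1066 (which inhibits JAK2 and STAT3). The 3 agents were given together, so a change cannot be assigned to 1 of them. The tumor model, strain, age and dose are not given in the labels used here.

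In the Hippo pathway, the kinases MST1/2 (encoded by Stk4 and Stk3) activate the kinases LATS1/2, which phosphorylate YAP and TAZ and so keep them out of the nucleus. Unphosphorylated YAP and TAZ enter the nucleus and bind TEAD factors, which recognise DNA but need a coactivator to raise transcription. YAP and TAZ are controlled mainly at the protein level, so the level of their own transcripts does not report their activity, and target transcripts are the usual readout. In the mammary gland the pathway is known for its part in cell density, matrix stiffness and the basal cell state.

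Whether the 3 samples of each group were 3 animals is not given in the labels, and p-values then reflect only how far these samples spread, which may be technical variation. The medians of the arrays, 6.70 to 6.73 in log2 units, were nearly equal, and precision is limited by the number of arrays. The tissue label was checked on 9 measured luminal and general epithelial markers, whose mean log2 level lay between 9.68 and 9.80 in the vehicle group and between 9.61 and 9.77 in the drug group, while single markers such as Foxa1 differed. Skeletal muscle transcripts varied widely between arrays of both groups, with a mean over 15 markers of 6.75 to 10.41 in vehicle and 4.83 to 9.51 in drug-treated tumors, highest in vehicle replicate 3 and drug replicate 1. All 15 muscle markers had a lower mean in the drug group, against 52.1% of all genes, with a median log2 difference of -1.91. Groups did not overlap for 0 of these 15, against 17.1% of all genes. In bulk tumors, fewer cells of a type and less RNA per cell cannot be told apart.

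The promoters of the genes are shown because a TEAD binding site near the start is a known feature of TEAD targets. Yap1 and Wwtr1, which were searched too, are the coactivators and are not named as targets here. RefSeq promoter sequences (GRCm38.p6) were matched for 6 of the 8 genes by symbol. None was found for Ccn2 or Tead1, so the motif search does not cover Ccn2. In the 250 bases before the start, both strands were searched for GGAATG, the core of the TEAD binding motif. It was present in 6 of 6, against 14.4% of the 27025 genes in the table. A form 1 letter longer, GGAATGT, which overlaps the first by construction, was present in 4 of 6, against 3.75% of genes. An AP-1 motif, TGANTCA, was present in 0 of 6 (7.82% of genes), and a CArG box, the binding site of SRF, in 0 of 6 (1.62% of genes). Since the genes were named in part because they are known TEAD targets, these shares describe them and test nothing. The stretches below run 5′ to 3′ on the gene's own strand, and capitals mark GGAATG, or its reverse complement CATTCC where the motif lies on the opposite strand.
Yap1 (chr9:8004705-8004764, minus strand): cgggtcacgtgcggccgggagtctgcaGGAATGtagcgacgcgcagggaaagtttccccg
Wwtr1 (chr3:57576014-57576073, minus strand): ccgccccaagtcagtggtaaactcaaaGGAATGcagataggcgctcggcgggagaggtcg
Ccn1 (chr3:145649986-145650235, minus strand): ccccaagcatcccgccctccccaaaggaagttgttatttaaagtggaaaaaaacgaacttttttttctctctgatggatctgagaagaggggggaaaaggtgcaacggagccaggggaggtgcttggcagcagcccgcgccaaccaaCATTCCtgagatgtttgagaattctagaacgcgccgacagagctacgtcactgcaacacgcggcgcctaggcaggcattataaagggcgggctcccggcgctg
Ankrd1 (chr19:36119845-36120094, minus strand): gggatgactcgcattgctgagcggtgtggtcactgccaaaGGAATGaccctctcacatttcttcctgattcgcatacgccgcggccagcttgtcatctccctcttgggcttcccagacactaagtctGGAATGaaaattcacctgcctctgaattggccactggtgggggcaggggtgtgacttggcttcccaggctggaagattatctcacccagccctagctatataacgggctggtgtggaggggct
Amotl2 (chr9:102717727-102717756, plus strand): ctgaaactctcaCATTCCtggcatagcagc
Axl (chr7:25788934-25788983, minus strand): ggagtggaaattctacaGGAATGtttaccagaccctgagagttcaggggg
Counting the base before the start as -1, the motif began at -141 in Yap1, -136 in Wwtr1, -103 in Ccn1, -65 in Amotl2 and -233 in Axl, and at -210 and -123 in Ankrd1, the 1 promoter of the 6 with more than 1 match. The start used for Amotl2 lies 713 bases inside the annotated gene, so its window sits downstream of the gene's first base. The starts used for Axl and Yap1 lie 191 and 42 bases from the first base of their annotated genes. Positions are counted from the start used.

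**Figure D1:**
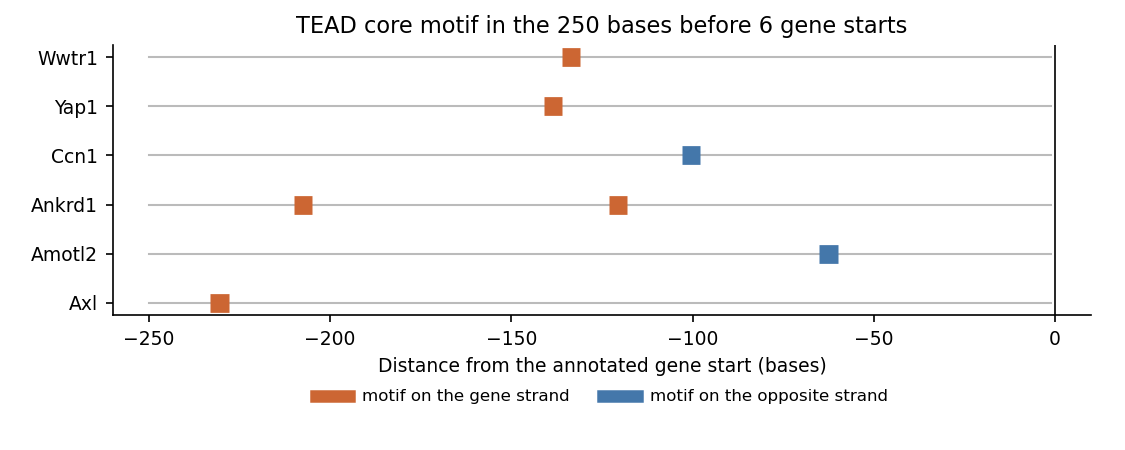
Position of the TEAD core motif in the 250 bases before the start used for each of 6 genes (x axis: bases from that start, 1 line per gene, colour: strand of the motif). Ankrd1 holds 2 motifs and the other 5 genes 1 each, all between -233 and -60.

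The comparison asked whether transcripts of the pathway's factors and targets differed between drug-treated and vehicle-treated tumors. Among the 8 genes, Ccn2 had the largest mean difference, and its transcript was higher on every drug array, by 1.48-fold in the mean, while the transcripts of Yap1, Wwtr1, Tead1, Ccn1, Amotl2 and Axl had mean differences of at most 0.13 on the log2 scale with overlapping groups. Ankrd1 varied so much between drug-treated tumors that no direction could be read. With limma, 0 of the 8 genes passed an adjusted p of 0.05 over all genes tested, as 0% of all 12393 genes did. At an unadjusted p under 0.05, 1 of the 8 passed against 10.3% of all genes, and 1 of 8 had groups that did not overlap against 17.1%. The members' median log2 difference was -0.10, against -0.01 for all genes, with 3 means higher and 5 lower, where 47.9% of all genes were higher and 52.1% lower. These shares lie near those of all genes.

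**Figure D2:**
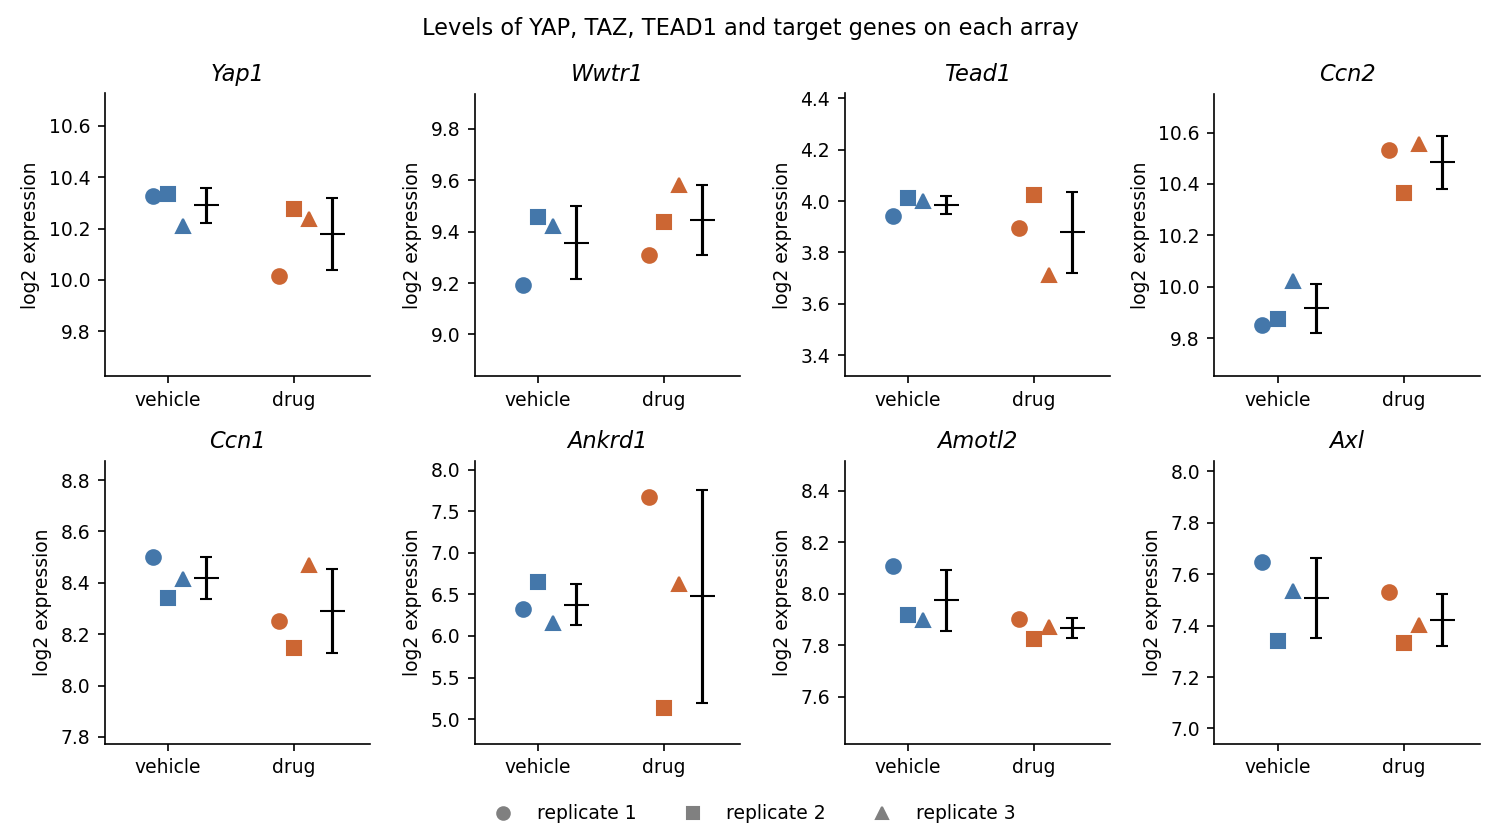
Log2 expression of the 8 genes on each array (points: 3 vehicle arrays in blue and 3 drug arrays in orange, with a symbol per replicate; bar: mean ± SD). In Ccn2 all 3 drug values, 10.37 to 10.55, lie above the vehicle values, 9.85 to 10.02, while in the other 7 genes the groups overlap. Panels span the same range of 1.1 log2 units, except Ankrd1 with 3.4.

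Of the factors, Yap1, which encodes the coactivator YAP, had log2 levels of 10.33, 10.33 and 10.21 in vehicle, against 10.02, 10.28 and 10.24 in drug-treated tumors. Drug replicate 1 was the lowest array, and the other 2 drug arrays lay within the vehicle range. The difference was -0.11 ± 0.08 (SE, n = 3 per group), with a 95% interval from -0.32 to 0.09, and the second probe set of Yap1 gave -0.05. With the skeletal muscle score as a covariate the difference was -0.20 ± 0.06, which passed the unadjusted threshold of 0.05 but not the adjusted one (limma adjusted p = 0.360, and 0.689 without the covariate). Wwtr1, which encodes the YAP paralog TAZ, had levels of 9.19, 9.46 and 9.42 in vehicle, against 9.31, 9.44 and 9.58 in drug-treated tumors. Its groups overlapped, with vehicle replicate 1 the lowest and drug replicate 3 the highest. The difference was 0.09 ± 0.10 (SE, n = 3 per group), with an interval from -0.16 to 0.33, and its other 2 probe sets gave 0.05 and 0.10. A change of more than 0.33 on the log2 scale in either direction lay outside both of these intervals, which were taken without a covariate.

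Tead1, the TEAD factor among the members, was measured by 1 probe set at the low end of the scale, with a mean level at percentile 15.6 of all genes. Its levels were 3.94, 4.01 and 3.999 in vehicle, against 3.90, 4.02 and 3.71 in drug-treated tumors, so that drug replicate 2 was the highest array and drug replicates 1 and 3 were below the vehicle range. The difference was -0.11 ± 0.09 (SE, n = 3 per group), with an interval from -0.31 to 0.10. Values this low may lie close to background, and detection calls were not used here, so the probe set says little about Tead1 itself. Of the other TEAD genes, Tead2 was brighter, with levels of 8.51, 8.51 and 8.39 in vehicle, against 8.19, 8.30 and 8.43 in drug-treated tumors. The difference was -0.16 ± 0.08 (SE, n = 3 per group), with an overlap through drug replicate 3. Differences for Tead3 and Tead4 were 0.01 and 0.03. The vestigial-like proteins bind TEADs in place of YAP, and their genes Vgll4 and Vgll1 differed by 0.16 and 0.13, neither past the limma threshold. Vgll4 was the 1 of 5 measured genes in that list whose groups did not overlap, as was found for 17.1% of all genes. Its levels were 9.10, 9.21 and 9.18 in vehicle, against 9.52, 9.24 and 9.21 in drug-treated tumors. The lowest drug value and the highest vehicle value both round to 9.21, so the groups barely separated, and drug replicate 1 was well above the rest.

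Ccn2 encodes connective tissue growth factor, a secreted matricellular protein that promotes matrix production and adhesion, and is the most widely used YAP-TEAD target. Ccn2 was measured by 1 probe set, so its values could not be checked on another. Its levels were 9.85, 9.87 and 10.02 in vehicle, against 10.53, 10.37 and 10.55 in drug-treated tumors. The 3 drug values were all above the 3 vehicle values, with a gap of 0.34 between the groups, and such an order was found for 7.73% of all genes. The means were 9.92 ± 0.09 and 10.48 ± 0.10 (SD, n = 3 each), a log2 difference of 0.57 ± 0.08 (SE) with a 95% interval from 0.38 to 0.76. The gene stood at rank 10 of 12393 by limma's p-value, but its adjusted p = 0.231 over all genes missed the threshold. An exact permutation test gave p = 0.1, two-sided, the smallest that 3 against 3 allows. Ccn2 had been reported with this difference in earlier work on these data, so the values describe it and are no independent support. Among 16 alternative settings the adjusted p by limma ran from 0.0803 to 0.507, and the difference from 0.53 to 0.63. The order of the groups could change only under quantile normalization and the median shift, and all drug arrays stayed above all vehicle arrays in both. In the other settings that order was fixed by the values already given.

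Ccn1 is the closest relative of Ccn2 among the targets, a matricellular ligand of integrins that YAP and TEAD also induce. Its levels were 8.50, 8.34 and 8.42 in vehicle, against 8.25, 8.15 and 8.47 in drug-treated tumors. Drug replicates 1 and 2 lay below the vehicle range and drug replicate 3 within it. The difference was -0.13 ± 0.09 (SE, n = 3 per group), with an interval from -0.36 to 0.10. The second probe set of Ccn1, almost as bright with a mean level of 8.28 against 8.35, had levels of 8.18, 8.13 and 8.35 in vehicle, against 8.33, 8.25 and 8.45 in drug-treated tumors. It gave the opposite sign, 0.12 ± 0.09 (SE, n = 3 per group), with an interval from -0.08 to 0.32. The chosen probe set carries the suffix _x_at, which Affymetrix gives to sets with probes that can match other transcripts. The direction for Ccn1 therefore depended on the probe set, and the mean of both gave -0.01. Neither interval reached the lower bound of the interval for Ccn2.

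**Figure D3:**
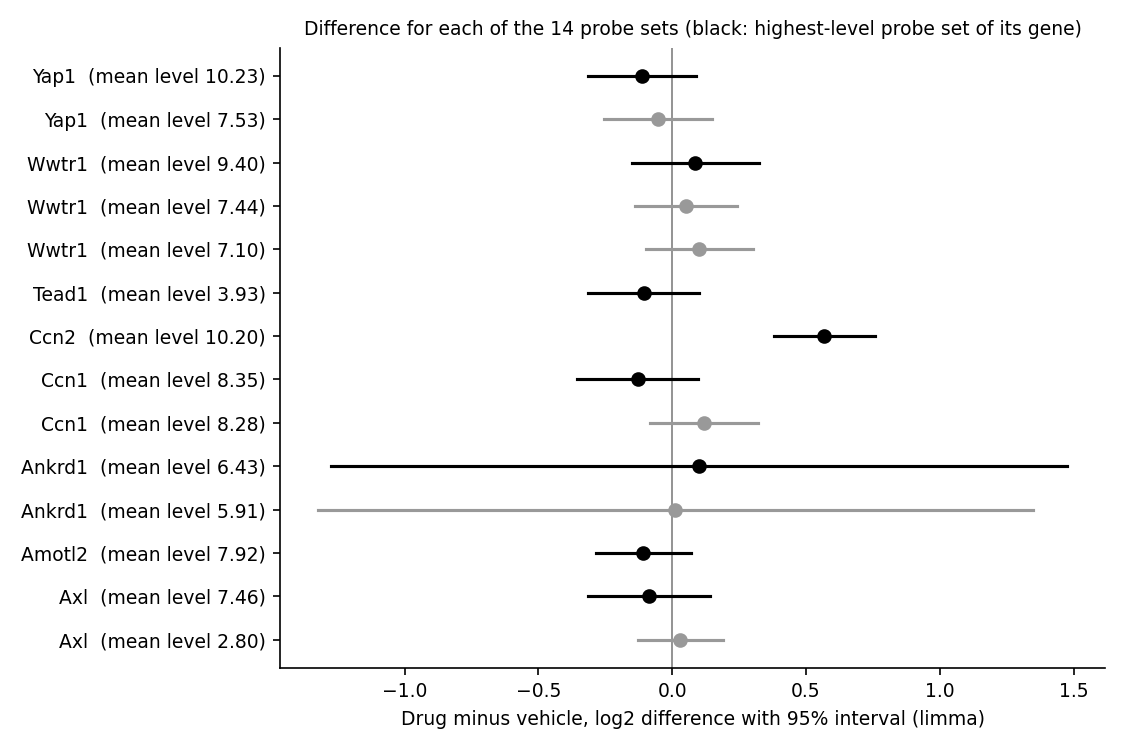
Log2 difference, drug minus vehicle, for each of the 14 probe sets of the 8 genes (points, with 95% intervals from limma over all probe sets with 1 symbol; black: the highest-level probe set of each gene; grey: the others). The interval of Ccn2 lies above 0 and those of the other 13 probe sets span it, with the widest for Ankrd1.

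Ankrd1, a cardiac and skeletal muscle ankyrin repeat protein that many cell types induce through YAP, was the most variable of the targets. Its levels were 6.32, 6.65 and 6.16 in vehicle, against 7.68, 5.13 and 6.62 in drug-treated tumors. Drug replicate 1 was the highest and drug replicate 2 the lowest of the 6 arrays, on either side of all vehicle values. The SD was 1.28 in drug-treated tumors against 0.25 in vehicle (n = 3 each), and the SD over the 6 arrays was at percentile 99.2 of all genes. The second probe set showed the same order in the drug group, with 7.05, 4.60 and 6.11. The difference of means was 0.10 ± 0.60 (SE, n = 3 per group), with an interval from -1.33 to 1.53 that includes changes as large as that of Ccn2 in both directions. Without drug replicate 1 the difference was -0.50, without drug replicate 2 it was 0.77, and without vehicle replicate 3 it was -0.01, so its direction rested on single arrays.

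Because Ankrd1 is a muscle gene, its levels were set beside those of skeletal muscle. Ankrd2, the skeletal muscle relative of Ankrd1, had levels of 5.97, 5.91 and 6.51 in vehicle, against 7.19, 5.47 and 5.35 in drug-treated tumors. The mean of the 15 muscle markers was 8.41, 6.75 and 10.41 in vehicle, against 9.51, 5.43 and 4.83 in drug-treated tumors. Drug replicate 1 was high in Ankrd1, Ankrd2 and muscle markers. Vehicle replicate 3, the array richest in muscle transcripts, had the lowest Ankrd1 of the vehicle arrays, and drug replicate 3, the poorest, had an Ankrd1 level within the vehicle range. Without the 2 muscle-rich arrays the difference for Ankrd1 was -0.61 ± 0.50 (SE, n = 2 per group), and with the muscle score as a covariate it was 0.49 ± 0.64, neither past the limma threshold. The part of muscle RNA in the Ankrd1 values was not otherwise tested.

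**Figure D4:**
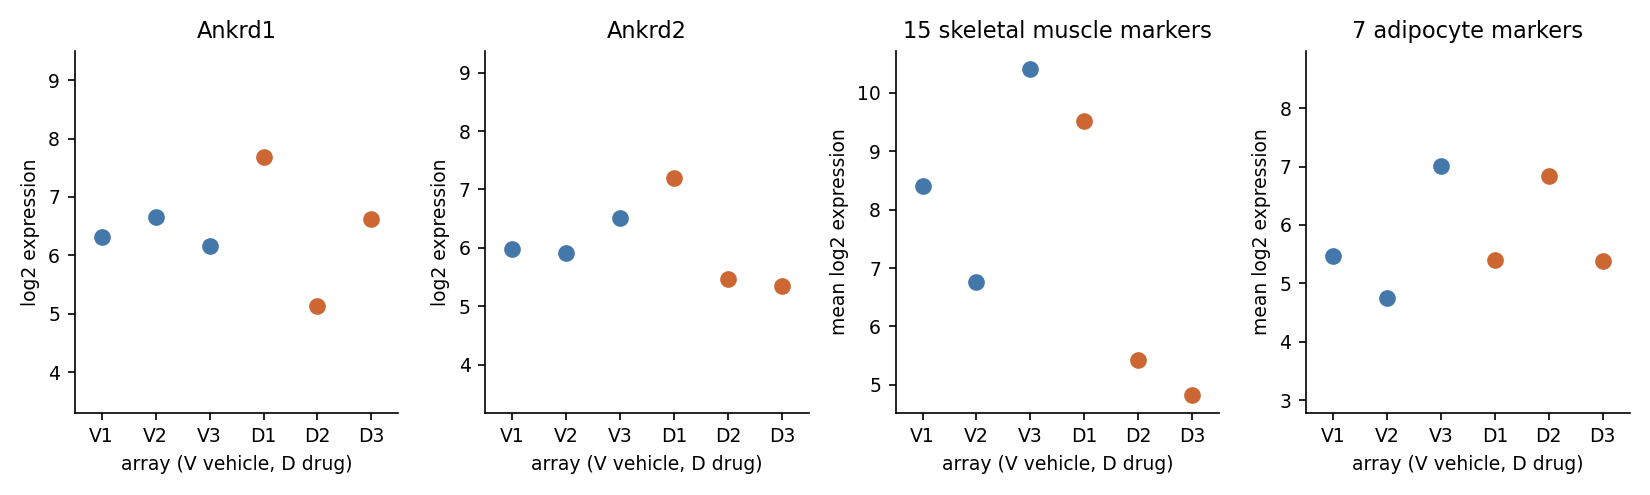
Log2 level of Ankrd1 and Ankrd2, and the mean log2 level of 15 skeletal muscle and 7 adipocyte markers, on each array (blue: vehicle, orange: drug; each panel spans 6.2 log2 units). Ankrd1 is highest on drug replicate 1 and lowest on drug replicate 2, while the muscle markers are highest on vehicle replicate 3 and lowest on drug replicate 3.

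Amotl2, an angiomotin-family scaffold that YAP induces and that in turn holds YAP in the cytoplasm, had levels of 8.11, 7.92 and 7.90 in vehicle, against 7.90, 7.82 and 7.87 in drug-treated tumors. The drug arrays were close together, with replicate 1 at the low end of the vehicle range and the others below it, and vehicle replicate 1 was the highest. The difference was -0.11 ± 0.07 (SE, n = 3 per group), with an interval from -0.28 to 0.07. Axl, a receptor tyrosine kinase of the TAM family, had levels of 7.65, 7.34 and 7.53 in vehicle, against 7.53, 7.33 and 7.40 in drug-treated tumors. The groups overlapped over most of their range. The difference was -0.09 ± 0.10 (SE, n = 3 per group), with an interval from -0.32 to 0.14. The second probe set of Axl had a mean level of 2.80, below the 5th percentile of genes at 3.02, and gave 0.03. By limma the adjusted p was 0.655 for Amotl2 and 0.800 for Axl.

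The gap between Ccn2 and the other members was measured within each array, as the log2 level of Ccn2 minus that of the other gene, set to 0 at the vehicle mean. Against the brighter probe set of Ccn1 this difference was -0.15, 0.04 and 0.11 in vehicle, against 0.78, 0.72 and 0.59 in drug-treated tumors. The size of this gap depends on the probe set, since the second probe set of Ccn1 differed by 0.12 and the brighter one by -0.13. Against Amotl2 it was -0.20, 0.02 and 0.19 in vehicle, against 0.69, 0.60 and 0.74 in drug-treated tumors. The groups did not overlap in either case, nor against Axl, Yap1, Wwtr1 or Tead1, where the mean gaps were 0.65, 0.68, 0.48 and 0.68. Against Ankrd1 the groups overlapped, with a mean gap of 0.47. Relative to each of these genes other than Ankrd1, Ccn2 was higher on every drug array. These genes other than Ankrd1 had an SD over the 6 arrays of 0.10 to 0.14, and the groups of Ccn2 itself lay 0.34 apart. The gaps therefore largely repeat the separation of Ccn2 and are not separate results. Since Ccn2 was singled out after its values were seen, the gaps are given without a test.

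Drug replicate 2 was the lowest of the 6 arrays for Ccn1, Ankrd1, Amotl2 and Axl, and the lowest drug array for Ccn2, a pattern named after the values were seen. Over all genes, drug replicate 2 was the lowest array for 11.8%. The second probe set of Ccn1 did not share the pattern, with vehicle replicate 2 the lowest and drug replicate 3 the highest array, nor did the dim second probe set of Axl, on which drug replicate 2 was the highest. Vehicle replicate 1 was the highest array for 3 of the 5 targets, Amotl2, Axl and the brighter probe set of Ccn1, and for 18.1% of all genes. The adipocyte markers had a mean of 6.83 on drug replicate 2 against 5.40 and 5.38 on the other drug arrays, and 4.75 to 7.01 in vehicle. Their part in these target levels was not tested.

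The rest of the pathway was read from lists chosen with earlier results of these data known. Of 9 measured Hippo kinases and adaptors of 11 listed, 4 had higher and 5 lower means, with a median of -0.01 and differences from -0.20 to 0.07. Taok3, a kinase upstream of MST1/2, had the largest difference, with levels of 7.10, 7.02 and 6.85 in vehicle, against 6.82, 6.80 and 6.75 in drug-treated tumors. Its groups did not overlap, as for 17.1% of all genes. The difference was -0.20 ± 0.08 (SE, n = 3 per group), and its other 2 probe sets gave -0.22 and -0.06. Sav1, the scaffold of MST1/2, differed by 0.03. Lats1, with a mean level of 2.64, and Lats2 differed by 0.03 and -0.03.

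Of 18 measured upstream and junction regulators of 23 listed, 7 had higher and 11 lower means, with a median of -0.03. Wwc1 (KIBRA), an activator of the LATS kinases, had levels of 10.42, 10.35 and 10.30 in vehicle, against 10.11, 10.23 and 10.10 in drug-treated tumors. Every drug value was below every vehicle value, and the difference was -0.21 ± 0.06 (SE, n = 3 per group). That order was found for 2 of the 18 regulators, Wwc1 and Frmd6, the latter at -0.07, and for 9.37% of all genes. A second bright probe set of Wwc1 gave -0.24, and 2 dim ones, with mean levels of 4.88 and 2.50, gave -0.00 and -0.09. Nf2, which encodes the tumor suppressor merlin, differed by -0.04. By limma, 0 genes of either list passed, and at an unadjusted p under 0.05 there was 1 in each, Taok3 and Wwc1, both lower, against 4.91% of all genes in that direction.

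A published signature of 22 YAP and TAZ targets holds Ccn2, Ccn1, Ankrd1, Amotl2 and Axl and 17 others, of which 14 were measured. Of these 14 genes 6 had higher and 8 lower means, with a median of -0.02 and differences from -0.29 to 0.26. Myof, a membrane repair protein, had levels of 8.29, 8.40 and 8.51 in vehicle, against 8.66, 8.53 and 8.67 in drug-treated tumors. Asap1, a GTPase-activating protein of cell adhesions, had 6.75, 6.73 and 6.56 in vehicle, against 7.15, 6.84 and 6.83 in drug-treated tumors. In these 2 of the 14 genes every drug value was above every vehicle value, an order found for 7.73% of all genes. The differences were 0.22 ± 0.08 for Myof and 0.26 ± 0.10 for Asap1 (SE, n = 3 per group). A dimmer probe set gave 0.04 for Myof and 0.05 for Asap1. Gadd45a, a stress-induced gene of the signature, had the lowest difference, -0.29, with overlapping groups. By limma, 0 of the 14 passed and 3 had an unadjusted p under 0.05, of which 2 were higher, against 5.37% of all genes in that direction. The promoter sequences of 11 of the 17 were found. GGAATG lay in the 250 bases before the start of 2 of these 11, Crim1 and Ptpn14, against 14.4% of the genes with a promoter sequence.

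Over the other TEAD factors and cofactors, Hippo genes and signature genes together, 44 genes outside the members were measured, of which 20 had higher and 24 lower means. The groups did not overlap for 3 in each direction, where 7.73% of all genes lay above and 9.37% below, so the counts are near those of all genes. The largest difference in either direction was 0.29 in size, while the lower bound of the interval for Ccn2 was 0.38. Intervals of some of these genes reached past 0.38 in size, to 0.51 for Asap1 and -0.57 for Gadd45a. The 44 genes are therefore not shown to differ less than Ccn2, which was singled out after its values were seen.

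**Figure D5:**
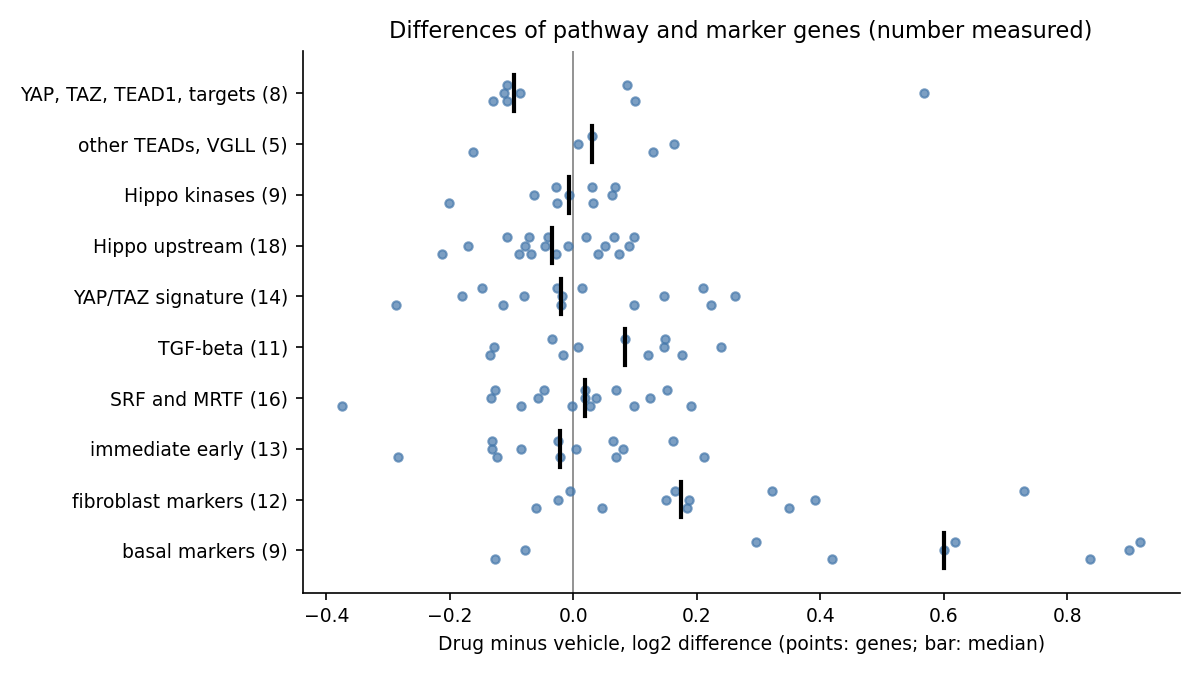
Log2 difference, drug minus vehicle, of each measured gene in 10 lists (points; bar: median of the list; number measured in parentheses). Ccn2, at 0.57, lies outside the range of the other TEAD, Hippo and signature genes, while the basal markers have a median of 0.60.

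Relatives of the targets and other inputs to Ccn2 were read in the same way. Of the other CCN genes, Ccn3 had levels of 5.74, 3.80 and 5.98 in vehicle, against 5.74, 5.74 and 7.28 in drug-treated tumors, a difference of 1.08 ± 0.68 (SE, n = 3 per group) with overlapping groups. Ccn4 and Ccn5 differed by 0.08 and 0.03. The relatives and ligands of AXL (Tyro3, Mertk, Gas6 and Pros1) differed by -0.10 to 0.26. Groups did not overlap for 0 of these 4, against 17.1% of all genes. Ccn2 and Ccn1 also respond to TGF-beta and to SRF with its actin-sensing MRTF cofactors. Of 11 measured genes of TGF-beta ligands, receptors and response, 7 had higher and 4 lower means, with a median of 0.08. Bambi, a decoy receptor, was the 1 gene of that list with all drug arrays above all vehicle arrays, at 0.24 ± 0.09 (SE, n = 3 per group). Such an order was found for 7.73% of all genes. Of 16 SRF and MRTF genes 9 had higher and 7 lower means, with a median of 0.02, and Vcl, which encodes the adhesion protein vinculin, was lower on all drug arrays, by -0.13 ± 0.05 (SE, n = 3 per group). Of 13 immediate early genes, a group to which Ccn1 and Ccn2 belong, 6 had higher and 7 lower means, and the median was -0.02. In this list Ier2 was lower on all drug arrays, at -0.28 ± 0.08 (SE, n = 3 per group). The order of Vcl and Ier2, every drug value below every vehicle value, was found for 9.37% of all genes. By limma, 0 of the 47 genes of these lists passed the adjusted threshold, and 2 had an unadjusted p under 0.05, Bambi and Ier2, where 10.3% of all genes did.

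Ccn2 is made by fibroblasts, vessel cells and epithelial cells, so the markers of each were set beside it. In the list of basal and myoepithelial markers, 7 of 9 genes, the basal epithelial Krt5, Krt14, Krt17, Trp63, Col17a1, Itgb4 and Lgals7, were higher on the same arrays as Ccn2, and for each of them every drug value was above every vehicle value, against 7.73% of all genes. The mean level of all 9 was 7.38 to 7.71 in vehicle and 7.96 to 8.16 in drug-treated tumors. The myoepithelial markers Oxtr and Mme, with low mean levels of 3.82 and 3.27, differed by -0.08 and -0.13, and the contractile genes Acta2, Cnn1 and Myh11, which myoepithelial cells share with smooth muscle, by 0.03, -0.08 and -0.24, all with overlapping groups. Of 9 luminal and general epithelial markers, Elf5 had every drug value above the vehicle values (7.73% of all genes). Foxa1 had every drug value below them (9.37% of all genes). Foxa1, a luminal transcription factor, had levels of 6.18, 6.11 and 6.60 in vehicle, against 4.74, 5.52 and 5.04 in drug-treated tumors, a difference of -1.20 ± 0.22 (SE, n = 3 per group) that did not pass over all genes (limma adjusted p = 0.273). Fibroblast markers had a mean of 8.55 to 9.68 in vehicle and 9.25 to 9.41 in drug-treated tumors. Of these 12 markers 9 were higher in the mean, against 47.9% of all genes. Groups did not overlap for 0 of 12, against 17.1% of all genes. With the fibroblast score as a covariate the difference for Ccn2 was 0.54 ± 0.08, and with the muscle score 0.61 ± 0.09 (SE, n = 3 per group). Endothelial markers had a mean of 6.16 to 6.54 and 6.32 to 6.54, and pericyte markers of 6.93 to 7.21 and 7.02 to 7.23, in vehicle and drug-treated tumors respectively. Macrophage markers had 8.40 to 9.05 and 8.48 to 8.91. T and NK cell markers had 4.55 to 4.67 and 4.32 to 4.46, where 2 of 7 genes, Cd3d and Cd3g, had every drug value below every vehicle value (9.37% of all genes) and the other 5 overlapped. The part of basal, luminal, or T and NK cells in the higher Ccn2 was not tested.

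For the 3 matricellular and muscle-type targets, the genes with the most similar pattern over the 6 arrays were found among the genes with an SD of at least 0.2. For Ccn2 these were Prss12, Slc2a9 and Anpep, with Pearson r of 0.987, 0.983 and 0.976 over 6 arrays, the highest of 1781 genes. With each group centred on its mean, so that the treatment difference was removed, r was 0.929, 0.824 and 0.631. For Ccn1, read from its brighter probe set alone, the most similar were Il1b, Slfn4 and Parp14. Their r was 0.980, 0.961 and 0.956, and 0.976, 0.975 and 0.962 after centring. The SD of that probe set over the 6 arrays was 0.14, below the 0.2 asked of the other genes. The second probe set of Ccn1, whose difference had the opposite sign, was not searched, so this likeness belongs to the brighter probe set only. For Ankrd1 they were Tafa5, Zfp991 and Alppl2, with r of 0.975, 0.943 and 0.914, and 0.981, 0.987 and 0.914 after centring. No gene was shared between the 3 sets. These are descriptions over 6 arrays that share tissue and groups but differ widely in muscle content, chosen as the highest of many, and no test was made.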

How the data were processed

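Total RNA of 6 mammary tumor samples, 3 vehicle and 3 drug, was isolated with a column kit and labelled with biotin, per the labels. The authors deposited log2 expression values for 22690 probe sets. Affymetrix Expression Console is named in the submitters' processing notes, while its version and how probes were summarised and normalized are not given here. The log2 scale was read from the range of the values, 1.88 to 14.14.

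The 20380 probe sets with 1 symbol were used (platform annotation of 2016), and of several per gene the one with the highest mean, leaving 12393 genes. Groups were compared with limma 3.58.1 in R 4.3.3 (defaults, two-sided, threshold 0.05 after Benjamini-Hochberg adjustment over all genes, no filter). The procedure was tested on simulated data. The members and lists were chosen with earlier results of these data known. The naming rule took the 8 members, and from each pathway list up to 4 genes with non-overlapping groups and an unadjusted p under 0.05, or else the gene with the smallest p, and for Ccn2, Ccn1 and Ankrd1 the 3 genes with the highest correlation among those with an SD of at least 0.2. Lists served only for counts and medians, with no set test. Named outside the rule, after their values were seen, were Tead3, Tead4, Vgll1, Vgll4, Sav1, Lats1, Lats2, Nf2, Gadd45a, Ccn4, Ccn5, Tyro3, Mertk, Gas6, Crim1, Ptpn14, Foxa1, Acta2, Cnn1, Myh11, Cd3g and the basal markers other than Krt14 and Lgals7. Frmd6 was also named outside the rule. Most marker genes are given as list means, though the rule also allowed 2 per list. Alternatives were another choice of probe set, a filter at a mean level of 5, quantile normalization, a median shift, eBayes with a trend and robust fitting, weighted arrays, arrays left out, and muscle or fibroblast scores as covariates. Figures were drawn with matplotlib 3.10.9.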

Additional observations from a re-analysis of the deposited data

How the results depend on the processing

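Of 135 member differences recomputed under an alternative, 130 kept their direction and their side of the threshold. The other 5 were 4 reversals of Ankrd1 and Ccn2, which passed when the unadjusted p under 0.05 was used (difference 0.57). Ankrd1 reversed with array weights (-0.20), without both muscle-rich arrays (-0.61), without drug replicate 1 (-0.50) and without vehicle replicate 3 (-0.01), and leaving out 1 array gave -0.50 to 0.77. The cause was not tested. Keeping their direction, single arrays left out moved the small differences of the others by more than 1.5 times, over -0.16 to -0.03 for Yap1, 0.0051 to 0.15 for Wwtr1, -0.18 to -0.02 for Tead1, -0.22 to -0.06 for Ccn1, -0.15 to -0.04 for Amotl2 and -0.17 to -0.02 for Axl, but not that of Ccn2, at 0.53 to 0.63. With the muscle covariate Wwtr1 was at 0.02 and Axl at -0.01. Tead1 has no value under the filter at a mean level of 5. The count of genes past the threshold was 0, and it was 3 without drug replicate 2 (0 to 3 over the single arrays left out), of which 0 were members. With the unadjusted p it was 1275 over all genes, 1 among the members and 3 in the signature. Leaving out 1 array, 2 to 3 members and 5 to 9 signature genes had higher means. Of 226 recomputed counts in the other lists or of non-overlapping groups, 25 moved by more than 1.5 times, or from or to 0. In the SRF and MRTF list, the 9 higher means became 5 without vehicle replicate 2 and 5 with the fibroblast covariate, and in the Hippo kinase list the 4 became 1 without drug replicate 3 and 7 without both muscle-rich arrays. The median over all genes lay between -0.010 and 0.0045 in all settings. Detection calls were not used here, so dim probe sets such as that of Tead1 limit what can be read.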
